A study of Homo sapiens with 5 samples.

Results

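The genes described here are 32 regulators and executors of apoptosis: the BCL2 family, caspases, inhibitors of apoptosis (IAP proteins) and the adaptors that connect death receptors and mitochondria to caspases. They were chosen by name, and a gene was measured where at least 1 probe set named it alone. In this way 31 of the 32 had a value, read by 122 probe sets, among 18239 genes in all. RIPK1, the kinase that joins tumour necrosis factor (TNF) receptors to survival or death signalling, had no such probe set. By role, 9 measured genes were anti-apoptotic, 21 were pro-apoptotic and CASP4, an inflammatory caspase, was placed in neither set.

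GFP-SAS cells, a human squamous carcinoma line of the tongue that carries green fluorescent protein, had been treated for 24 h in 5 ways. The groups were 10 nM siAURKA-1, 10 nM siAURKA-2, 100 nM MLN8237, the non-targeting siRNA siNT, and DMSO. Both AURKA siRNAs target the mRNA of Aurora kinase A, a mitotic serine/threonine kinase, and MLN8237 (alisertib) inhibits that kinase. All 5 groups share the cell line, the GFP tag and the treatment time, and each was measured on 1 Affymetrix GeneAtlas array, so no difference below has a replicate check and no test was possible. Values are log2 signals that had been centred per probe set, so that 0 is the median of the 5 arrays: they compare arrays and give no expression level, and the squamous identity of the cells could not be checked against marker levels. In bulk RNA, fewer cells that express a gene and less RNA per cell cannot be told apart.

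Apoptosis through mitochondria is set by the balance within the BCL2 family. BH3-only proteins (BIM, BID, NOXA, PUMA, BIK and others) bind the anti-apoptotic members (BCL2, BCL-XL, MCL1) and free or activate BAX and BAK, which open the outer mitochondrial membrane. Cytochrome c then assembles APAF1 and caspase-9 into the apoptosome, while death receptors reach caspase-8 through FADD and TRADD, with XIAP, cIAP1 and c-FLIP as brakes. Cells held in mitosis, as after loss of Aurora A activity, are known to depend on MCL1.

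As a check of the labels, AURKA had a centred log2 signal of -3.36 with siAURKA-1, -2.64 with siAURKA-2, 0.64 with MLN8237, 0.00 with siNT and 0.15 with DMSO (1 probe set). Both siRNA arrays against AURKA were thus far below siNT, by 10.3-fold and 6.24-fold. In the siRNA comparisons and the drug comparison, 16 measured markers of fibroblasts, leukocytes and endothelium differed by -0.16 to 0.13 on the log2 scale. The squamous keratin gene KRT5 was 1 of 5 measured epithelial markers and was low on the siAURKA-2 array, with values of 0.32 with siAURKA-1, -1.82 with siAURKA-2, -0.26 with MLN8237, 0.00 with siNT and 0.19 with DMSO. Relative to siNT, all 5 markers were lower with siAURKA-2 (-1.82 to -0.03) and higher with siAURKA-1 (0.04 to 0.60).

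BIK, PMAIP1, BIRC2 and CASP4 spanned the widest ranges over the arrays. For PMAIP1, BIRC2 and CASP4, which have an entry in the promoter table, the 250 bases before an annotated start are printed below, 5' to 3' on the strand of the gene (RefSeq, GRCh38.p14), because BIRC2 and PMAIP1 had a shared pattern over the arrays while CASP4 had another. BIRC2 is shown at chr11:102347124-102347373 (+ strand, the second of its 2 listed starts, shown because it held more of the capitals than the first, which had 1 match), PMAIP1 at chr18:59899746-59899995 (+ strand) and CASP4 at chr11:104968575-104968824 (- strand). The window of the first BIRC2 start, chr11:102346964-102347213, overlaps the one shown, so a match can lie in both. Capitals mark TGACG or its reverse complement CGTCA, the core of the cyclic AMP response element.
BIRC2: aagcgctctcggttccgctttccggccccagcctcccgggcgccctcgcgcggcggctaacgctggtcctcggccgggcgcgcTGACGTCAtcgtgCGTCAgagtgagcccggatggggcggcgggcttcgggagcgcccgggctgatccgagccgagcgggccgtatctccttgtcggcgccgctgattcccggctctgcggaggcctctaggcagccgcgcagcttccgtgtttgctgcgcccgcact
PMAIP1: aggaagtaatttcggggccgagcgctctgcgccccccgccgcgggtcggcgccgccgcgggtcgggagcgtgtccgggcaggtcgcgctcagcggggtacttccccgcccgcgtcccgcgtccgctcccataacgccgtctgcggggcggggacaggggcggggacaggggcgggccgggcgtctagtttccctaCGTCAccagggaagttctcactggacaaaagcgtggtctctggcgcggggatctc
CASP4: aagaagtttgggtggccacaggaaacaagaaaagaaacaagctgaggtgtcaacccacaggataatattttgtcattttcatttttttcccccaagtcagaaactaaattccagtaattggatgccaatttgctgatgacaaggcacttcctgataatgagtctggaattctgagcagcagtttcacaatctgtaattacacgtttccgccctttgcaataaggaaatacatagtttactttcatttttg
The BIRC2 window held 3 matches to TGACG counted over both strands, 2 of which overlap in the full palindrome TGACGTCA. The PMAIP1 window held 1 match and the CASP4 window 0. Of 35116 annotated starts, 21.2% had TGACG and 1.65% had TGACGTCA in a window of this length on either strand. Of the 48 starts of members in that table, 16 had TGACG and 1 had TGACGTCA. Counted by gene, which is not the measure of those percentages, 13 of the 26 members had TGACG before at least 1 start. By gene, 1 had TGACGTCA. A loose NF-kB pattern (GGG and CC with 5 bases of any kind between them) occurred 2 times in the BIRC2 window, 3 times in the PMAIP1 window and 0 times in the CASP4 window, against 54.4% of starts with at least 1. The STAT pattern TTCNNNGAA (6.57% of starts) was in 0 of these 3 windows. Motifs and windows were chosen after the expression values were seen, and a match is a description of letters and not of binding.

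Across the whole set most members differed little between treatments. The median range over the 5 arrays was 0.25 on the log2 scale for the 31 measured members, beside 0.22 for all genes. A range of at least 1.5-fold was seen for 8 of the 31 (25.8%), beside 16.2% of all genes. These 8 were BIK, CASP4, PMAIP1, BIRC2, MCL1, XIAP, BID and CASP9. The other 23 members had ranges between 0.0015 (APAF1) and 0.52 (CASP6), and 6 of them stayed under 0.1. A gene value is a median over probe sets that were each centred on 0, so it can lie near 0 where its probe sets disagree.

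**Figure D1:**
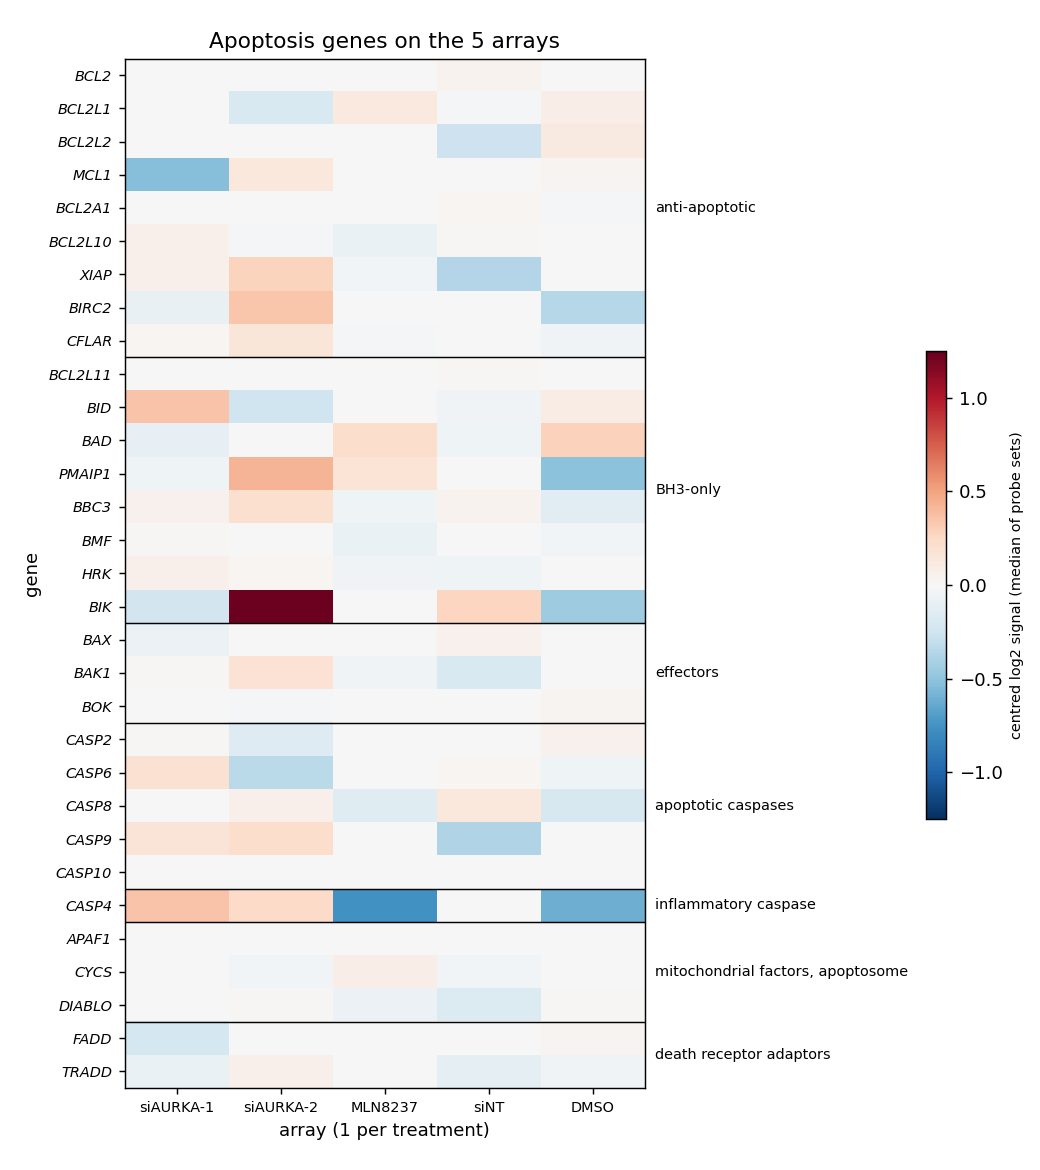
Heat map of the centred log2 signal (colour) of the 31 measured genes (rows, grouped by role) on the 5 arrays (columns, 1 per treatment). The strongest colours are BIK with siAURKA-2 (1.23) and CASP4 with MLN8237 (-0.76) and DMSO (-0.61), and most rows are near 0.

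Pro- and anti-apoptotic members were then set against each other in each comparison. With siAURKA-1 relative to siNT, the medians were 0.02 for the 21 pro-apoptotic and 0.01 for the 9 anti-apoptotic genes. With siAURKA-2 relative to siNT they were 0.00 and 0.13, and with MLN8237 relative to DMSO both were 0.00. Between the controls, siNT minus DMSO, they were -0.03 and 0.01. The median over all genes was 0.00 in each of these comparisons. The role medians thus lay at most 0.13 apart, in favour of anti-apoptotic genes with siAURKA-2, and that gap was 0.01 when siAURKA-2 was set against DMSO.

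**Figure D2:**
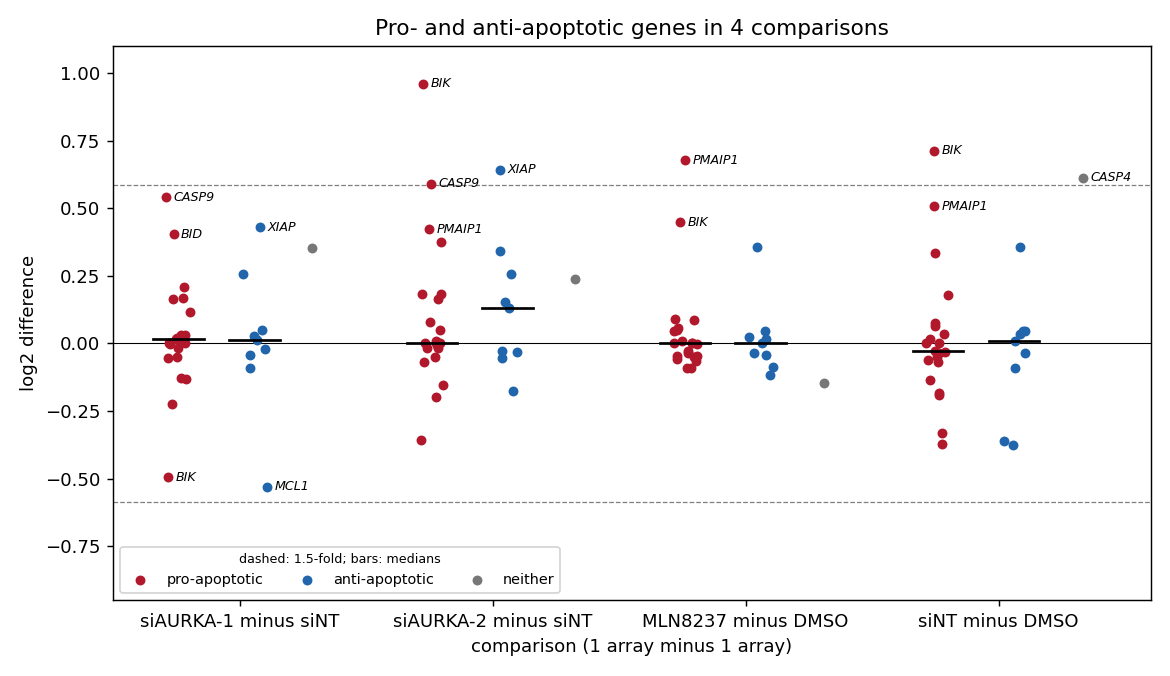
Log2 differences (vertical axis) of pro-apoptotic (red), anti-apoptotic (blue) and other (grey) members in 4 comparisons (horizontal axis), each of 1 array minus 1 array. Black bars are role medians and dashed lines mark 1.5-fold. Points gather around 0, with BIK, XIAP and CASP9 above the line for siAURKA-2, PMAIP1 for MLN8237, and BIK and CASP4 for siNT.

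In counts at 1.5-fold, siAURKA-1 relative to siNT had 0 of 31 members past the line, where 7.05% of all genes were. MCL1 (-0.53) and CASP9 (0.54) came closest. SiAURKA-2 relative to siNT had 3 members higher and 0 lower, beside 1.96% of all genes higher and 3.11% lower. MLN8237 relative to DMSO had 1 higher and 0 lower, beside 0.367% and 0.115% of all genes. The siNT array relative to DMSO had 2 higher and 0 lower, beside 1.53% and 0.554%. Directly compared, siAURKA-1 relative to siAURKA-2 had 1 member higher and 2 lower, beside 3.68% and 3.99%. At 2-fold, BIK passed, lower with siAURKA-1 than siAURKA-2 (1 member, beside 2.16% of all genes in that comparison). In the other 4 comparisons 0 members were 2-fold apart, beside 1.96% of all genes with siAURKA-1, 1.26% with siAURKA-2, 0.0658% with MLN8237 and 0.296% between the controls. At a looser line, 0.32 on the log2 scale, siAURKA-1 had 6 of 31 members past it relative to siNT, beside 17.5% of all genes, and siAURKA-2 had 7, beside 14.6%. At that line MLN8237 relative to DMSO had 3 members, beside 3.02% of all genes, namely PMAIP1, BIK and BIRC2, all higher. SiNT relative to DMSO had 9, beside 8.54%, of which 5 were higher and 4 lower. The comparison of both AURKA siRNAs had 6, beside 18.1%. With so few members, each of these counts rests on named genes, which are described next.

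Among BH3-only genes, BIK varied most. BIK encodes a BH3-only protein of the endoplasmic reticulum that binds BCL2 and BCL-XL. Its value was -0.23 with siAURKA-1, 1.23 with siAURKA-2, 0.00 with MLN8237, 0.27 with siNT and -0.45 with DMSO. The siAURKA-2 array stood far above the rest, and the DMSO array was lowest. BIK was 1.95-fold higher with siAURKA-2 than with siNT (log2 difference 0.96) and 3.19-fold higher than with DMSO (1.67). Under siAURKA-1 it was below siNT 1.41-fold (-0.49) but above DMSO by 0.22, so its direction for that siRNA turns with the control array. The direct difference, siAURKA-1 minus siAURKA-2, was -1.45 (2.74-fold), with -1.67 to -1.22 over its 3 probe sets. With MLN8237 it was 1.36-fold higher than with DMSO (0.45), while the siNT array exceeded DMSO 1.64-fold (0.71). The siAURKA-2 array, where BIK was highest, was also the array on which KRT5 was lowest, and the part of this in the BIK result was not tested.

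PMAIP1 encodes NOXA, a BH3-only protein that binds MCL1 and promotes its degradation. Its value was -0.05 with siAURKA-1, 0.42 with siAURKA-2, 0.17 with MLN8237, 0.00 with siNT and -0.51 with DMSO. Here the DMSO array was set apart below all others. PMAIP1 was the member past 1.5-fold with MLN8237, at 1.60-fold over DMSO (0.68, with 0.67 and 0.68 in its 2 probe sets). The siNT array, without inhibitor, was also above DMSO by 0.51, and MLN8237 lay 0.17 above siNT. With siAURKA-2 PMAIP1 was 0.42 above siNT and 0.93 above DMSO, and with siAURKA-1 it was 0.05 below siNT and 0.46 above DMSO.

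BID, the BH3-only substrate of caspase-8 that carries the death receptor signal to mitochondria, differed between the AURKA siRNAs. Its value was 0.36 with siAURKA-1, -0.25 with siAURKA-2, 0.00 with MLN8237, -0.05 with siNT and 0.09 with DMSO. SiAURKA-1 was the highest and siAURKA-2 the lowest of the 5 arrays. The difference of siAURKA-1 from siAURKA-2 was 0.60 (1.52-fold), and all 4 probe sets gave between 0.56 and 0.66. Relative to siNT, BID was 0.40 higher with siAURKA-1 and 0.20 lower with siAURKA-2 (-0.20), and relative to DMSO it was 0.27 and -0.34.

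The remaining BH3-only genes were closer to level. BBC3, encoding PUMA, a BH3-only protein that binds all anti-apoptotic relatives, was 0.17 above siNT and 0.34 above DMSO with siAURKA-2. With MLN8237 it was 0.09 above DMSO, but its 2 probe sets gave -0.10 and 0.28. BAD, whose protein is held inactive by survival kinases, was lower on all siRNA arrays. It had -0.10 for siAURKA-1, 0.00 for siAURKA-2 and -0.05 for siNT, against 0.22 with MLN8237 and 0.28 with DMSO. That order held for 2 of 31 members, BAD and BCL2L1, beside 6.35% of all genes. BCL2L11, encoding BIM, had a range of 0.02 in the median of its 14 probe sets, which did not agree among themselves. They gave -0.41 to 0.17 for siAURKA-1 minus siNT and -0.16 to 0.39 for siNT minus DMSO. HRK and BMF had ranges of 0.12 and 0.10. Because the values carry no level, a gene that stayed level and a gene near background cannot be told apart.

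Of the effector genes, BAX, which moves from the cytosol to mitochondria, had a range of 0.13, and BOK one of 0.05. BAK1, the effector resident at mitochondria, exceeded siNT by 0.21 under siAURKA-1 and by 0.38 under siAURKA-2, but DMSO by 0.02 and 0.18. The siNT array had the lowest BAK1 value (-0.19).

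Of the anti-apoptotic BCL2 proteins, MCL1, which is short-lived and needed by cells arrested in mitosis, varied most. Its value was -0.53 with siAURKA-1, 0.13 with siAURKA-2, -0.01 with MLN8237, 0.00 with siNT and 0.03 with DMSO. The siAURKA-1 array was set apart below the other 4, which lay close together. Under siAURKA-1, MCL1 was 1.44-fold below siNT (-0.53) and 1.48-fold below DMSO (-0.57), so the choice of control hardly moved it. The difference of siAURKA-1 from siAURKA-2 was -0.66 (1.58-fold), with -1.18 to 0.00 over its 6 probe sets. Probe sets of MCL1 did not all show this: relative to siNT, 4 of the 6 gave -0.53 to -0.60, and the other 2 gave 0.0041 and 0.05. With siAURKA-2, where the gene value was 0.13 above siNT, probe sets gave from 0.0041 to 0.61.

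The other anti-apoptotic BCL2 genes differed less. The gene value of BCL2L1, encoding BCL-XL, was lowest with siAURKA-2 (-0.19) and highest with MLN8237 (0.13). It lay 0.17 below siNT in the siAURKA-2 comparison (-0.17), but its 3 probe sets disagreed there, from -0.51 to 0.15. BCL2L2, encoding BCL-W, was 0.26 above siNT with either AURKA siRNA and 0.12 below DMSO with either (-0.12), as the siNT array was 0.37 below DMSO (-0.37). BCL2 itself had a range of 0.05, BCL2A1 one of 0.04 and BCL2L10 one of 0.15.

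Brakes on caspases showed 2 patterns. BIRC2 encodes cIAP1, a ubiquitin ligase of TNF receptor complexes, and had values of -0.09 with siAURKA-1, 0.34 with siAURKA-2, 0.00 with MLN8237, 0.00 with siNT and -0.36 with DMSO. As for BIK and PMAIP1, the siAURKA-2 array was highest and the DMSO array lowest. BIRC2 was 0.34 above siNT and 0.70 above DMSO with siAURKA-2, 0.09 below siNT and 0.26 above DMSO with siAURKA-1, and 0.36 above DMSO both with MLN8237 and with siNT. The same extremes, siAURKA-2 highest and DMSO lowest, held for CFLAR and BBC3, making 5 of 31 members beside 5.72% of all genes. With a gap of at least 1.5-fold between these arrays they held for 3 members, BIRC2, PMAIP1 and BIK, beside 0.976% of all genes. The order was noticed in these data and is given as a description.

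XIAP, whose protein binds and blocks caspase-9 and executioner caspases, had its lowest gene value on the siNT array. It read 0.07 with siAURKA-1, 0.28 with siAURKA-2, -0.04 with MLN8237, -0.36 with siNT and 0.00 with DMSO. By gene value XIAP exceeded siNT by 0.43 under siAURKA-1 and by 0.64 under siAURKA-2, but DMSO by 0.07 and 0.28. Single probe sets of XIAP exceeded DMSO by 0.01 to 0.72 under siAURKA-1 and by 0.28 to 0.998 under siAURKA-2. Its 5 probe sets disagreed for siNT minus DMSO, from -0.63 to 0.72. CFLAR, encoding the caspase-8 inhibitor c-FLIP, had a range of 0.20 over the arrays, with 0.15 above siNT for siAURKA-2.

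**Figure D3:**
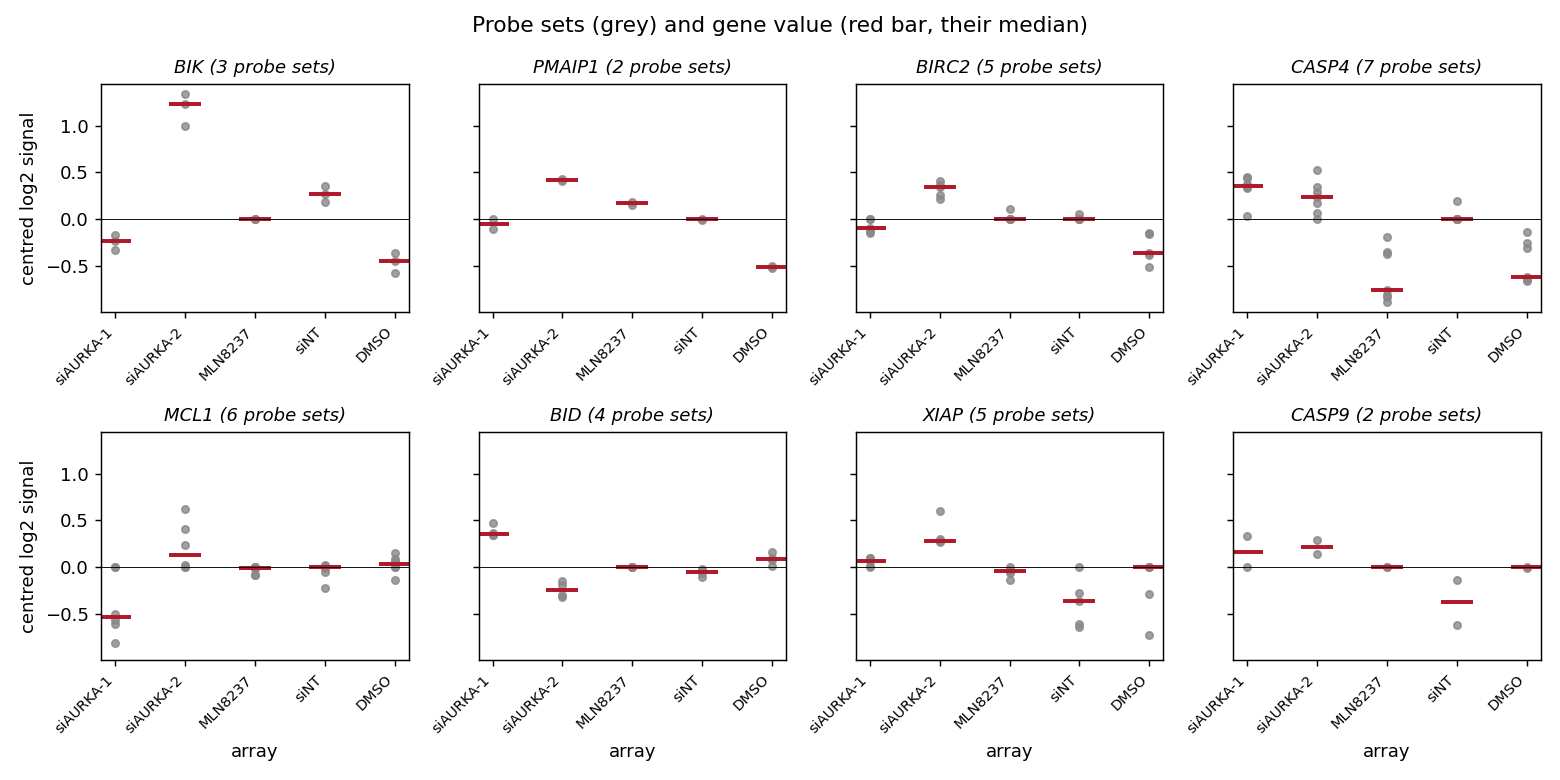
Centred log2 signal (vertical axis) of every probe set (grey points) and their median (red bar) on the 5 arrays (horizontal axis) for 8 genes. Probe sets of BIK, PMAIP1 and BID lie close together, whereas MCL1 has 2 of 6 near 0 with siAURKA-1 and XIAP has probe sets that disagree on the siNT and DMSO arrays.

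CASP4 was higher on the siRNA arrays than on the arrays without siRNA. CASP4 encodes an inflammatory caspase that senses lipopolysaccharide in the cytosol and triggers pyroptosis. Its value was 0.35 with siAURKA-1, 0.24 with siAURKA-2, -0.76 with MLN8237, 0.00 with siNT and -0.61 with DMSO. All 3 siRNA arrays lay above both arrays without siRNA, and the smallest gap, siNT minus DMSO, was 0.61 (1.53-fold). A gap of at least 1.5-fold in this order was found for 10 genes of 18239 (0.0548%), CASP4 being the member among them. The order and the gap were read from the same values, so this count is given as a description. The siNT minus DMSO difference was 0.49 with the mean of probe sets and 0.47 without _x_ probe sets (those that may match several sequences), both short of 1.5-fold. The siRNA arrays were higher in 7 of its 7 probe sets, with gaps of 0.13 to 0.66, 4 of them past 1.5-fold. Relative to siNT, CASP4 was 0.35 higher with siAURKA-1 and 0.24 higher with siAURKA-2, and relative to DMSO 0.97 and 0.85. MLN8237 was 0.15 below DMSO (-0.15) and 0.76 below siNT (-0.76). Without a gap size, the order was found for 5 of 31 members (CASP4, CASP8, CFLAR, BBC3 and BMF) beside 13.1% of all genes, with a gap of 0.15 for CASP8.

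CASP4 lies on chromosome 11 beside the genes of 2 further inflammatory caspases, CASP5 and CASP1. CASP5 had a value of 0.02 with siAURKA-2 and 0.00 on the other 4 arrays. CASP1, encoding the caspase that matures interleukin-1 beta, read 0.00 with siAURKA-1, 1.02 with siAURKA-2, -0.26 with MLN8237, 0.82 with siNT and -0.10 with DMSO. The siNT array was thus 0.92 above DMSO, and siAURKA-1 lay 0.82 below siNT (-0.82). All 3 siRNA arrays were above both other arrays for CASP1 too, but siAURKA-1 exceeded DMSO by only 0.10. Without a gap size, 13.1% of all genes had this order. CARD16, a gene of the same cluster that resembles the start of CASP1, shared this order, with 0.00 under siAURKA-1, 1.06 under siAURKA-2, -0.47 under MLN8237, 0.40 under siNT and -0.56 under DMSO. CASP12, a further caspase gene read by 1 probe set, did not share the order. It had -0.01 under siAURKA-1, 0.00 under siAURKA-2, -0.11 under MLN8237, 0.13 under siNT and 0.03 under DMSO. These genes are paralogs, and probe sets that read more than 1 of them would share signal.

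CASP9, the initiator caspase of the apoptosome, depended on the siNT array as the gene value of XIAP did. It read 0.17 with siAURKA-1, 0.22 with siAURKA-2, 0.00 with MLN8237, -0.37 with siNT and 0.00 with DMSO. Relative to siNT it was 0.54 higher with siAURKA-1 and 0.59 higher with siAURKA-2, just past 1.5-fold. Relative to DMSO these were 0.17 and 0.22. Of its 2 probe sets, 1 gave 0.91 and the other 0.27 for siAURKA-2 minus siNT.

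The neighbouring genes CFLAR, CASP10 and CASP8 on chromosome 2 act together at death receptors. CASP8, the initiator caspase there, stood 0.33 above DMSO on the siNT array; its difference from siNT was -0.13 under siAURKA-1 and -0.07 under siAURKA-2. CASP10, its close relative, had a range of 0.0025 in the median of its 5 probe sets, which disagreed, with -0.17 to 0.27 for siAURKA-1 minus siAURKA-2 and -0.23 to 0.09 for MLN8237 minus DMSO. CASP6, an executioner caspase read by 1 probe set, read 0.19 with siAURKA-1, -0.34 with siAURKA-2, 0.00 with MLN8237, 0.02 with siNT and -0.05 with DMSO, so that the AURKA siRNAs differed by 0.52. CASP2, an initiator linked to DNA damage and mitotic errors, was 0.02 and -0.16 relative to siNT.

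Gene values of factors downstream of mitochondria had ranges of at most 0.18. APAF1, the apoptosome scaffold, had a range of 0.0015 in the median of its 4 probe sets, which gave -0.20 to 0.00 for siAURKA-1 minus siNT and -0.03 to 0.29 for siNT minus DMSO. CYCS (cytochrome c) had a range of 0.12 and DIABLO, the mitochondrial antagonist of IAP proteins, one of 0.18. Of the death receptor adaptors, FADD had its lowest gene value with siAURKA-1 (-0.22), 0.22 below siNT (-0.22) and 0.25 below DMSO (-0.25). Its other values were 0.00 with siAURKA-2, 0.00 with MLN8237, 0.00 with siNT and 0.03 with DMSO. The 3 probe sets of FADD disagreed in direction. They gave -0.305 to 0.13 for siAURKA-1 minus siNT and -0.36 to 0.13 for siAURKA-1 minus DMSO. TRADD, which brings FADD or RIPK1 to TNF receptor 1, had a range of 0.18.

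**Figure D4:**
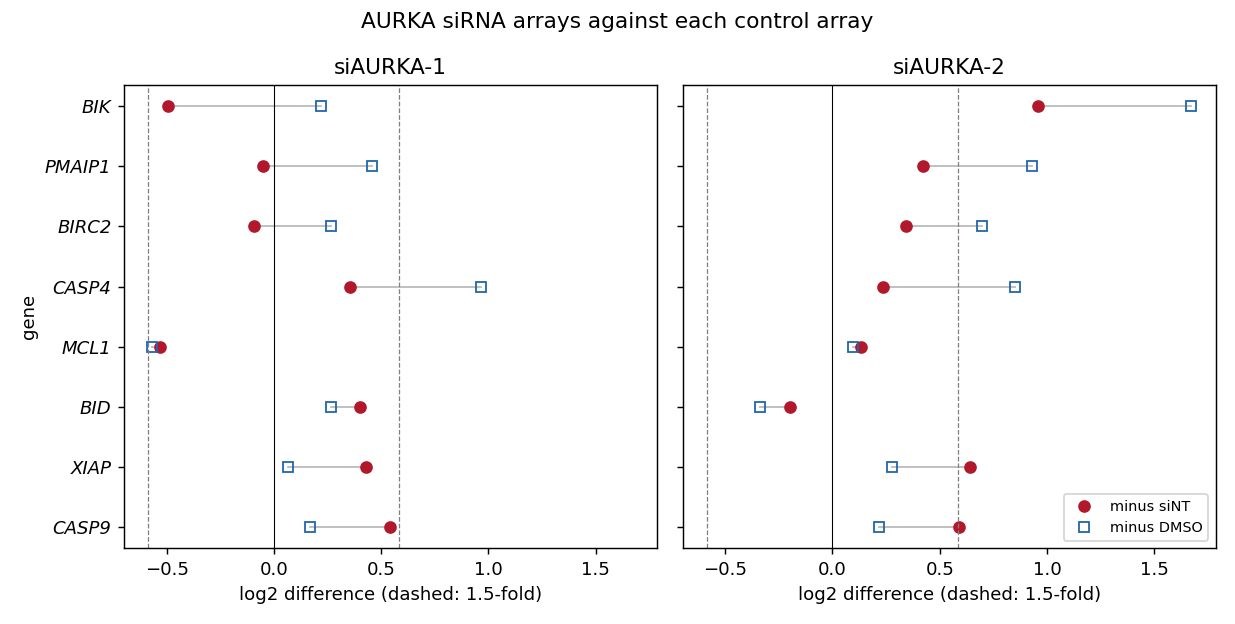
Log2 difference (horizontal axis) of the siAURKA-1 array (left) and the siAURKA-2 array (right) from siNT (red circles) and from DMSO (blue squares) for 8 genes, with 1.5-fold dashed. MCL1 keeps its place with either control, BIK and CASP4 move up against DMSO, and XIAP and CASP9 move toward 0.

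The 2 AURKA siRNA comparisons share the siNT array, and siNT minus DMSO shares it with the opposite sign, so they were also read against DMSO. With siAURKA-1, the call against DMSO was CASP4, higher (beside 3.27% of all genes). With siAURKA-2 the calls against DMSO were BIK, PMAIP1, CASP4 and BIRC2, all higher (beside 2.65% of all genes). The gene values of XIAP (0.28) and CASP9 (0.22) no longer passed, although single probe sets of XIAP gave 0.28 to 0.998. BIK was thus past 1.5-fold with siAURKA-2 against either control array.

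Other genes of the pathway were taken from lists of death receptors, further BCL2 relatives, caspases and their substrates, IAP genes, necroptosis and p53 pathway genes, of which 53 of 59 had a value. Relative to siNT, 3 were at least 1.5-fold higher and 3 lower with siAURKA-1 (2.57% and 4.48% of all genes), and 3 higher and 1 lower with siAURKA-2 (1.96% and 3.11%). With MLN8237 relative to DMSO 1 was higher and 0 lower (0.367% and 0.115%), and with siNT relative to DMSO 3 were higher and 0 lower (1.53% and 0.554%). The median of the 53 was 0.00 in the first 3 of these comparisons and 0.02 in the last.

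Of these genes, TNFAIP3, encoding the NF-kB inhibitor A20, was highest with siAURKA-2 and lowest with DMSO, as PMAIP1 was: -0.59 with siAURKA-1, 1.11 with siAURKA-2, 0.43 with MLN8237, 0.00 with siNT and -1.11 with DMSO. TP53INP1, a p53 pathway gene, had the same extremes. It read -0.07 with siAURKA-1, 0.94 with siAURKA-2, 0.00 with MLN8237, 0.05 with siNT and -0.12 with DMSO. These extremes also held for BNIP2, BCLAF1, BCL2L14 and CASP14 of these lists, and for 5.72% of all genes. With siAURKA-2, TP53INP1 was 0.89 above siNT and 1.06 above DMSO. FAS, the death receptor whose ligand activates caspase-8 through FADD, read 0.34 with siAURKA-1, 0.16 with siAURKA-2, 0.00 with MLN8237, -0.67 with siNT and -0.15 with DMSO. FAS was 1.01 above siNT with siAURKA-1 and 0.49 above DMSO. The 12 genes of its list, death receptors and ligands, had a median of -0.003 for siAURKA-1 minus siNT. Among them TNFRSF10D rose over siNT as well, by 0.71 (siAURKA-1) and 0.57 (siAURKA-2), and over DMSO by 0.35 and 0.21. TNFRSF10A, read by 1 probe set, was lower than siNT for either AURKA siRNA (-0.45), but 0.09 above DMSO. MLKL, the executioner of necroptosis, read by 1 probe set, was -0.45 with siAURKA-1, -0.17 with siAURKA-2, 0.16 with MLN8237, 0.72 with siNT and 0.00 with DMSO. It lay 1.17 below siNT with siAURKA-1 (-1.17) and 0.45 below DMSO (-0.45). PERP, a desmosomal protein linked to apoptosis, was high with siAURKA-1 (0.81, beside 0.00 with siAURKA-2, -0.09 with MLN8237, 0.02 with siNT and -0.20 with DMSO). BNIP3L, a BH3-like mitophagy receptor, was 0.88 with siAURKA-1 and 0.51 with siNT, and lay between -0.10 and 0.00 on the other 3 arrays.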

How the data were processed

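RNA of GFP-SAS cells was measured on 5 arrays, 1 for each treatment label, which sets the groups. Per the labels, a 3' in vitro transcription kit made the biotinylated target. The values that the authors deposited were read as log2. RMA is named in the submitters' processing notes; its version, the log base and the centring are not given in these sources. Each of the 49386 probe sets had a median of exactly 0 across the 5 arrays. Of these, 93 were controls, 45253 others named 1 gene symbol, 1327 named several genes and 2713 had no listed gene. Symbols were updated by Entrez number (45172 probe sets matched). A gene's value is the median of its probe sets.

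Differences between arrays were computed with Python 3.11.15 and pandas 2.3.3 and called at 1.5-fold. A run on simulated 2-fold changes with little noise checked the arithmetic and not the error rate of the call. With 1 array per group no test is possible, and precision is limited by having 5 arrays. Members at least 1.5-fold apart in a comparison are given on all arrays, and BIRC2 was added for its range after its values were seen. The members, lists and roles were chosen with earlier results of these data known. Alternatives were other thresholds, other summaries of probe sets, probe sets without _x_, centring each array, a filter on range and the other control arrays.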

Additional observations from a re-analysis of the deposited data

How the results depend on the processing

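The counts of members past 1.5-fold were 0 for siAURKA-1 and 3 for siAURKA-2 against siNT, 1 for MLN8237 and 2 for siNT against DMSO, and 3 between the AURKA siRNAs. At 2-fold the last 4 became 0, 0, 0 and 1, and at 0.32 on the log2 scale the 5 counts became 6, 7, 3, 9 and 6. Taking the probe set with the widest range gave 2 for siAURKA-1, 2 for MLN8237 and 4 for siNT, and the mean of probe sets gave 1 for siNT. For siAURKA-1 the count was 1 without _x_ probe sets, 1 against DMSO and 1 against the mean of both controls. For MLN8237 it was 0 against that mean, and against siNT it was 1 of another gene and direction, CASP4, lower (-0.76), in place of PMAIP1, higher. The gap between role medians (pro minus anti) for siAURKA-2 minus siNT was -0.13, and became -0.27 with the widest probe set, -0.21 for genes with a range of at least 0.2 and -0.0095 against DMSO. That filter moved the gap from -0.01 to 0.11 for siAURKA-1 minus siAURKA-2 and from -0.04 to 0.0626 for siNT minus DMSO. Other gaps moved by less than 0.07, the median absolute siNT minus DMSO difference. Of 9 called differences among the 8 named genes, 0 reversed under any alternative, including the median of the probe sets' own differences, which was added after the data were seen. Not every alternative could reverse a call. The filter on range leaves a called value as it is, and no other control was tried for siNT minus DMSO or siAURKA-1 minus siAURKA-2. Apart from the other thresholds, the alternatives lost 10 calls and gained 15. Calls lost were those of XIAP and CASP9 with siAURKA-2 and PMAIP1 with MLN8237 under other controls, XIAP with the widest probe set (0.27), BID without _x_ probe sets (0.56), and CASP4 for siNT minus DMSO with the mean of probe sets (0.49) or without _x_ probe sets (0.47). Calls gained with the widest probe set were BIK (-0.69) and CASP9 (0.94) with siAURKA-1, MCL1 with siAURKA-2 (0.61), XIAP with MLN8237 (0.59) and CASP9 for siNT minus DMSO (-0.61). Without _x_ probe sets XIAP with siAURKA-1 was gained (0.61). Against DMSO CASP4 with siAURKA-1 (0.97), and CASP4 (0.85), BIRC2 (0.70) and PMAIP1 (0.93) with siAURKA-2, were gained. Against the mean of controls, gains were CASP4 with siAURKA-1 (0.66) and PMAIP1 with siAURKA-2 (0.68). With the widest probe set MCL1 for siAURKA-1 minus siAURKA-2 was -1.18. XIAP for siNT minus DMSO, not past the line at -0.36, was 0.72 with the widest probe set and -0.60 without _x_ probe sets, so its direction depends on the probe set. No paired analysis was possible because each group has 1 array. Signal over background could not be judged from centred values.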
